A study of Mus musculus with 18 samples.

Results

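Cell cycle and proliferation genes were examined as a group of 36 genes: the G1 cyclins and their kinases, the CDK inhibitors Cdkn1a and Cdkn1b, the E cyclins, 11 genes of S phase and 16 genes of G2 and mitosis. The members were the rows of the count table whose Ensembl identifiers map to these mouse symbols, and each of the 36 was found as 1 row of the 54532 genes in the table. Each library came from polyA RNA, by a modified Smart-Seq2 protocol, of sorted retinal cells of rd1 mice on the FVB strain at postnatal day 30. Every animal thus carries the rd1 mutation, under which rod photoreceptors degenerate, and no retina without it was analysed here. Each group also received AAV8-GFP under the retina, either alone (GFP) or together with AAV8-TGFB1 (TGFB1), so that the comparison of treatments is the added TGFB1 vector on a shared GFP vector and surgery. There were 7 GFP and 7 TGFB1 libraries of microglia, numbered 2 to 8 in each group, and 2 GFP and 2 TGFB1 libraries of the remaining retinal cells, called non-microglia. The promoter and species of the TGFB1 insert, the antibody used for sorting and the number of animals per library were not given in the sources used here. Therefore p-values describe how far these libraries differ from each other, part of which may be technical.

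A dividing cell passes from G1, where D cyclins with Cdk4 and Cdk6 and then E cyclins release the E2F factors, through S phase, where the MCM helicase opens the origins and PCNA holds the polymerases on DNA, to G2 and mitosis, which cyclins A and B with Cdk1 drive and Cdc20 ends. Cdkn1a (p21) and Cdkn1b (p27) bind cyclin kinases and hold them back. Microglia are the resident macrophages of the retina, renew themselves by division and are known to proliferate during photoreceptor degeneration. TGF-beta is known both to restrain the cycle in many cell types and to maintain the microglial gene program.

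The libraries held 1582451 to 3064027 counts. Levels are given as counts per 1000000 (CPM) on library sizes scaled with TMM over all 18 libraries, and 3 counts, the limit below which a level is treated as not measured, correspond to 0.881 to 2.12 CPM. This limit and the exact intervals of pooled counts cover counting error only, and the reads carry no molecular identifiers. The intervals of fitted changes also include the spread between libraries. Markers of most cell types matched the labels: 10 microglial genes summed to 36265 to 44950.1 CPM in the microglia and 57.8 to 69.7 CPM in the non-microglia, which instead held RNA of Mueller glia, endothelium and bipolar cells. Ganglion cell markers (7 genes) ran against the labels, with 48.5 CPM on average in the GFP microglia and 18.8 CPM in the GFP non-microglia, and 3 of the 4 that could be tested were called as higher in microglia. Among the microglia, GFP replicate 2 and TGFB1 replicate 6 stood apart with the most RNA of bipolar cells (218 and 82.6 CPM over 9 markers, against 11.7 to 57.8 CPM in the others) and of endothelium (138 and 88.9 CPM over 8 markers, against at most 53.2 CPM). The 12 Mueller glia markers summed to 4662 to 7162 CPM in the microglia, highest in TGFB1 replicate 7. Without Apoe and Clu they summed to 316 to 895 CPM, highest in GFP replicate 5, with 391 CPM in TGFB1 replicate 7. The 4 astrocyte markers summed to 10.1 to 75.5 CPM, highest in GFP replicate 5. Markers of monocytes and other macrophages (9 genes) summed to 13.5 to 70.9 CPM in the microglia, and the monocyte gene Ly6c2 was at 0 in all of them except GFP replicate 4. Lymphocyte markers (10 genes) summed to 14.5 to 39.3 CPM and neutrophil markers (6 genes) to 3.53 CPM or less. Cone markers (7 genes) summed to 245 to 399.6 CPM in the microglia and to 867 to 1941 CPM in the non-microglia. Of the cone markers 1 was called as higher and 5 as lower in GFP microglia. The pigment epithelium markers also had 1 called as higher and 5 as lower.

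To show what the members' promoters share, the letters before the RefSeq start site are given for 5 mitotic genes and 1 replication gene that were far higher in microglia than in the other cells. They were picked after the search as examples that hold the motifs. Mitotic genes are known to be repressed outside the cycle through a CHR element (TTTGAA) beside CCAAT boxes, and replication genes to be driven by E2F sites. The sequences are from RefSeq on GRCm38.p6, run 5′ to 3′ along the minus strand, on which all 6 genes lie, and carry no annotated exon. Capitals mark the CHR letters (TTTGAA), the CCAAT box and the E2F letters (TTTNNCGC) found on either strand, and a match on the other strand appears as its reverse complement. Neighbouring or overlapping matches, as in Mcm6, form 1 run of capitals.
Ccnb2: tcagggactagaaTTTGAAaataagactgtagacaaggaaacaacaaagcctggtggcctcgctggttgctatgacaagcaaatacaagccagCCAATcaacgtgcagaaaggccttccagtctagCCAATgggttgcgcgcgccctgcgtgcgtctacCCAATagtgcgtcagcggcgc
Cdk1: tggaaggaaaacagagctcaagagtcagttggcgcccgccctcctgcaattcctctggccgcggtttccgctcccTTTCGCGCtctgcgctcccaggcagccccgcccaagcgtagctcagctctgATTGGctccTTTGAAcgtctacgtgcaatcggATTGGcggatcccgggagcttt
Cdc20: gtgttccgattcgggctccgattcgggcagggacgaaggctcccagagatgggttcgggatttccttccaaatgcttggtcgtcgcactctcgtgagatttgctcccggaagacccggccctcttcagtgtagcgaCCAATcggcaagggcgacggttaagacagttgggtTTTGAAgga
Mki67: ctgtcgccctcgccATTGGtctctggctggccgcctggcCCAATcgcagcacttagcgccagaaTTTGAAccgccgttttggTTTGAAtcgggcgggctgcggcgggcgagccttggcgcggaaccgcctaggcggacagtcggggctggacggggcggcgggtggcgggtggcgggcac
Top2a: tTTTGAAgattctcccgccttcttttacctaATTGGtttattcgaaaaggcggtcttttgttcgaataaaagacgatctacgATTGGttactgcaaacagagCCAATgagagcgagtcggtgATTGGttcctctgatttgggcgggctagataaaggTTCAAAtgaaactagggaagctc
Mcm6: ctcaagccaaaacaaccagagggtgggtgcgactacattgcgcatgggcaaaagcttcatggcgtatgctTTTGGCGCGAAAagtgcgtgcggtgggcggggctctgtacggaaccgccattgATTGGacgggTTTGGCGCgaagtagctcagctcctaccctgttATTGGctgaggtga
The 5 mitotic stretches hold TTTGAA and CCAAT, and the Mcm6 stretch holds CCAAT and TTTNNCGC. In Ccnb2 the TTTGAA, at 167 to 162 bases before the start, is not beside the nearest CCAAT, at 87 to 83. The Cdk1 and Cdc20 stretches end 27 and 10 bases before the start. Matches closer to it, a TTTGAA at 15 to 10 in Cdk1 among them, are not shown. They are chr9:70421555-70421734 (Ccnb2), chr10:69352939-69353118 (Cdk1), chr4:118437353-118437532 (Cdc20), chr7:135716380-135716559 (Mki67), chr11:99024190-99024369 (Top2a) and chr1:128359706-128359885 (Mcm6).

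RefSeq promoters were matched for 30 of the 36 members (33 promoters), and none was matched for Mcm4, Ccnd1, Aurkb, Ccna2, Ccnd2 and Ccne2. Over the 250 bases before the start, on both strands, CCAAT was found in 13 of 14 promoters of G2 and mitosis genes (92.9%), in 9 of 11 of S phase genes (81.8%) and in 33.8% of all 32851 promoters. TTTGAA was found in 7 of 14 promoters of the G2 and mitosis genes (50%) and in 1 of 11 of the S phase genes (9.09%), against 16% of all promoters. TTTNNCGC was found in 3 of 11 S phase promoters (27.3%), in Mcm5, Mcm6 and Mcm7, in 1 of 14 mitotic promoters (Cdk1, 7.14%) and in 4.28% of all. None of the 3 motifs was found in the Ccne1 promoter, and TTTGAA in none of the promoters of the D cyclins, their kinases or the inhibitors that were matched. These are matches of letters in 1 window, with no test, and bear no measured binding.

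The main comparison asked whether added TGFB1 changed the members in microglia. No member was called as changed: 35 of the 36 had counts enough to be tested and 0 were called at an adjusted p under 0.05 (edgeR's quasi-likelihood test, 7 against 7 libraries, adjusted over all 10970 genes tested), beside 0.310% of all genes called (0.237% higher and 0.0729% lower with TGFB1). At an unadjusted p under 0.05 there were 4 members with edgeR, 2 with DESeq2 and 2 with limma voom, and neither DESeq2 nor limma voom called a member. With edgeR 730 of all 10970 genes were at that p. Of the 35 log2 fold changes 26 were above 0, with a median of 0.08 and a range from -0.34 (Ccnd1) to 0.52 (Rrm2), where the median over all genes was 0.00 and 50.7% were above 0. The 95% interval of the change lay within 2-fold in either direction for 34 members and within 1.5-fold for 24, and Rrm2 was the exception to the first, with an interval from -0.01 to 1.06. The GFP and TGFB1 libraries overlapped in each of the 35, and 0.219% of all genes tested did not overlap. The 36th member, Ccnd2, was too low in microglia to be tested.

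**Figure D1:**
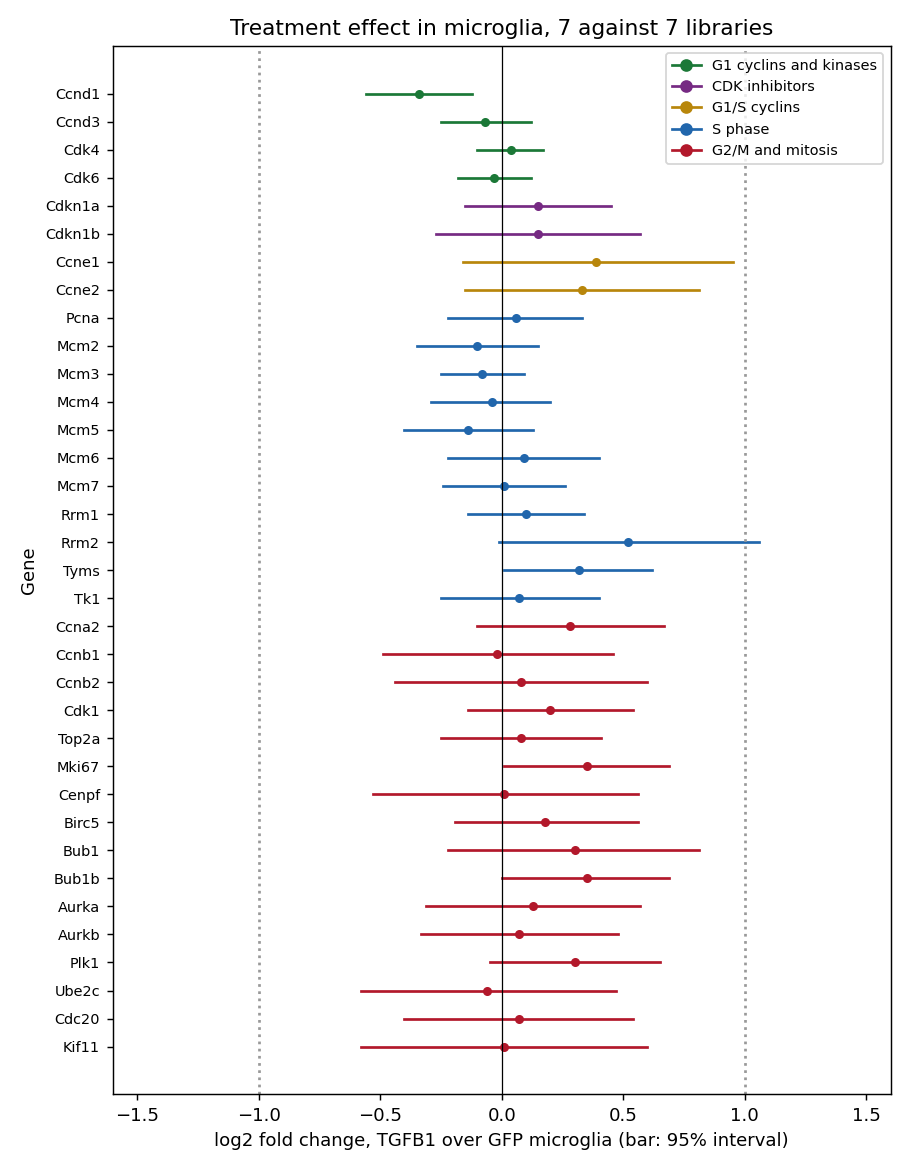
Log2 fold change of each tested member between TGFB1 and GFP microglia (points, with 95% intervals as bars, 7 against 7 libraries), coloured by role; dotted lines mark 2-fold. The intervals of all members except Ccnd1, Mki67, Tyms and Bub1b include 0, and that of Rrm2 alone passes the upper dotted line.

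Among the genes of G1, cyclin D1 (Ccnd1, ENSMUSG00000070348, chr7:144929931-144939925, minus strand) had the smallest p of all members. Its level was 84.8 to 119 CPM in the GFP microglia (median 98.8) and 57.1 to 103 CPM in the TGFB1 microglia (median 72.3). The groups overlapped, and 6 of the 7 TGFB1 libraries lay below the GFP mean. The log2 fold change was -0.34 ± 0.11 (SE; adjusted p = 0.357), and over the 29 alternative fits it ran from -0.54 to -0.25 with adjusted p from 0.0708 to 0.947. Of the exon bases of Ccnd1, 23.4% are shared with LTO1 on the other strand, and reads there cannot be told apart because the strand setting of the counting is not given in the sources used here.

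Cyclin D3 (Ccnd3) was at 199 to 257 CPM in GFP microglia (median 226) and 153 to 264 CPM with TGFB1 (median 216), with a log2 fold change of -0.07 ± 0.09. The partner kinases were among the least variable members. Cdk4 was at 157 to 201 CPM and 164 to 206 CPM, with a median of 189 in both groups, and its log2 fold change was 0.04 ± 0.07. Cdk6 was at 133 to 176 CPM (median 148) without and 136 to 166 CPM (median 147) with the TGFB1 vector, and its change was -0.03 ± 0.07. For both kinases the interval excluded changes beyond 1.5-fold. Cyclin D2 (Ccnd2) was at 1.5 to 7.07 CPM in GFP and 1.64 to 9.18 CPM in TGFB1 microglia, close to the limit of 3 counts.

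The inhibitors, of which Cdkn1a is known to be induced by TGF-beta in epithelial cells, had a log2 fold change of 0.15 each. Cdkn1a ranged from 36.1 to 72.4 CPM in the GFP microglia (median 51.0) and from 43.8 to 78 CPM in the TGFB1 microglia (median 54.3; change 0.15 ± 0.14, adjusted p = 0.916). Cdkn1b ranged from 11.3 to 26.6 CPM (median 16.9) and from 12.8 to 29.6 CPM (median 18.5), for a change of 0.15 ± 0.20 with an adjusted p of 0.945. In both genes the groups overlapped over most of their range.

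The E cyclins, which carry cells from G1 into S phase with Cdk2, were low. Ccne1 was at 4.38 to 13.3 CPM in GFP microglia (median 5.98) and 5.47 to 14.3 CPM in TGFB1 microglia (median 9.49), a log2 fold change of 0.39 ± 0.27 (adjusted p = 0.877). Ccne2 was at 5.06 to 11.7 CPM (median 7.26) and 6.93 to 12.2 CPM (median 10.8), a change of 0.33 ± 0.23 (adjusted p = 0.880). The 95% intervals ran from -0.16 to 0.95 and from -0.15 to 0.81 on the log2 scale, so that a rise of 1.5-fold could not be told from no change.

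Of the S phase genes, Rrm2 and Tyms had the largest estimates, and both serve the supply of nucleotides. Rrm2, the regulated subunit of ribonucleotide reductase (chr12:24708241-24714146, plus strand), was at 15.4 to 42.5 CPM in GFP microglia (median 22.1) and 23.7 to 62.7 CPM in TGFB1 microglia (median 29.7). In 6 of the 7 TGFB1 libraries it lay above the GFP mean, and its log2 fold change was 0.52 ± 0.25 (adjusted p = 0.767). Without TGFB1 replicate 7, which had the highest value, the change was 0.34. Thymidylate synthase (Tyms) was at 20.7 to 39.0 CPM (median 30.0) and 29.7 to 46.6 CPM (median 38.3), with 6 of 7 above the GFP mean and a change of 0.32 ± 0.15 (adjusted p = 0.729). Thymidine kinase (Tk1) was at 23.5 to 40.2 CPM (median 33.2) and 19.6 to 51.0 CPM (median 36.7), a change of 0.07 ± 0.16. Rrm1, the large reductase subunit, was at 68.4 to 106 CPM (median 76.6) and 65.7 to 105 CPM (median 83.9), a change of 0.10 ± 0.11. The groups overlapped in each of the 4 genes.

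The sliding clamp gene Pcna was at 24.7 to 53 CPM in GFP microglia (median 33.9) and 31.3 to 44.2 CPM with TGFB1 (median 39.8), a log2 fold change of 0.06 ± 0.13. The 6 MCM helicase subunits had changes of -0.14 to 0.09, with standard errors of 0.08 to 0.15. Mcm3, the most abundant of them per kilobase, was at 115 to 169.9 CPM (median 131) and 123 to 143 CPM (median 128). Mcm2 was at 52.0 to 102 CPM (median 67.7) and 48.7 to 79.6 CPM (median 67.1), and Mcm5 at 48.9 to 102 CPM (median 82.3) and 56.9 to 93.4 CPM (median 64.4). Mcm4, at 35.3 to 56.1 CPM (median 48.7) and 34.6 to 53.6 CPM (median 48.1), spanned nearly the same range in both groups. Mcm6 was at 41.9 to 85.6 CPM (median 58.7) and 55.1 to 80.1 CPM (median 73.0), and Mcm7 at 41.2 to 75.7 CPM (median 53.2) and 54.3 to 74.0 CPM (median 58.4). In all 6 the ranges of the groups overlapped.

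Among the G2 and mitosis genes 14 of 16 estimates were above 0, with a median of 0.10, and each of the 16 intervals lay within 2-fold. Mki67, which encodes the proliferation antigen Ki-67 (chr7:135689784-135716361, minus strand), was at 17.1 to 35.2 CPM in GFP microglia (median 25.9) and 24 to 46.6 CPM in TGFB1 microglia (median 30.0). The groups overlapped, with 6 of 7 TGFB1 libraries above the GFP mean and a log2 fold change of 0.35 ± 0.16 (adjusted p = 0.711). Bub1b, a gene of the spindle checkpoint (chr2:118598211-118641591, plus strand), was at 12.7 to 30.5 CPM (median 20.7) and 21.2 to 31.1 CPM (median 28.3). All 7 TGFB1 libraries lay above the GFP mean, and the change was 0.35 ± 0.17 (adjusted p = 0.749).

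The cyclins of this role and Cdk1 overlapped between the groups over most of their range. Cyclin A2 (Ccna2) was at 33.1 to 57.9 CPM in GFP (median 50.7) and 33.6 to 76.5 CPM in TGFB1 microglia (median 53.1). Cyclin B1 (Ccnb1) was at 8.36 to 30.1 CPM (median 17.9) and 12 to 24.3 CPM (median 15.8), and cyclin B2 (Ccnb2) at 16.7 to 41.8 CPM (median 27.0) and 19.0 to 44.9 CPM (median 28.8). Their changes were 0.28 ± 0.18 for Ccna2, -0.02 ± 0.23 for Ccnb1 and 0.08 ± 0.25 for Ccnb2. Their kinase Cdk1 was at 18.3 to 35.4 CPM (median 28.8) and 21.2 to 41.8 CPM (median 32.5), with a change of 0.20 ± 0.16. Cdc20, the activator of the anaphase-promoting complex, was at 12.3 to 44.4 CPM (median 26.5) and 21.5 to 39.6 CPM (median 32.2), and Ube2c, the ubiquitin-conjugating enzyme of that complex, at 9.56 to 35.0 CPM (median 19.8) and 12 to 34.8 CPM (median 21.9).

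The other mitotic genes had log2 fold changes from -0.06 ± 0.25 (Ube2c) to 0.30 ± 0.25 (Bub1). Top2a, the topoisomerase that untangles sister chromatids, was at 43.1 to 67.7 CPM in GFP microglia (median 59.8) and 41.3 to 84 CPM with TGFB1 (median 54.0). The chromosomal passenger genes Aurkb and Birc5 were at 12.3 to 27.1 CPM (median 21.3) and 11.6 to 27.7 CPM (median 20.8) in the GFP group, and at 12.4 to 32.1 CPM (median 22.5) and 17.9 to 32.1 CPM (median 21.5) in the TGFB1 group. The kinetochore genes Bub1 and Cenpf were at 8.25 to 14.4 CPM (median 11.1) and 7.97 to 24.8 CPM (median 13.3) without, and at 4.89 to 20.7 CPM (median 15.6) and 8.03 to 24 CPM (median 16.4) with the TGFB1 vector. Ranges overlapped in each of these genes. Plk1, a kinase of mitotic entry, was at 11.9 to 23.9 CPM (median 21.4) and 16.1 to 34.9 CPM (median 25.5), a change of 0.30 ± 0.17 (adjusted p = 0.824). The spindle pole kinase Aurka was at 8.36 to 21.8 CPM (median 13.1) and 10.5 to 23.0 CPM (median 14.7), and the spindle motor gene Kif11 at 4.78 to 11.6 CPM (median 8.5) and 4.35 to 13.4 CPM (median 7.09).

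**Figure D2:**
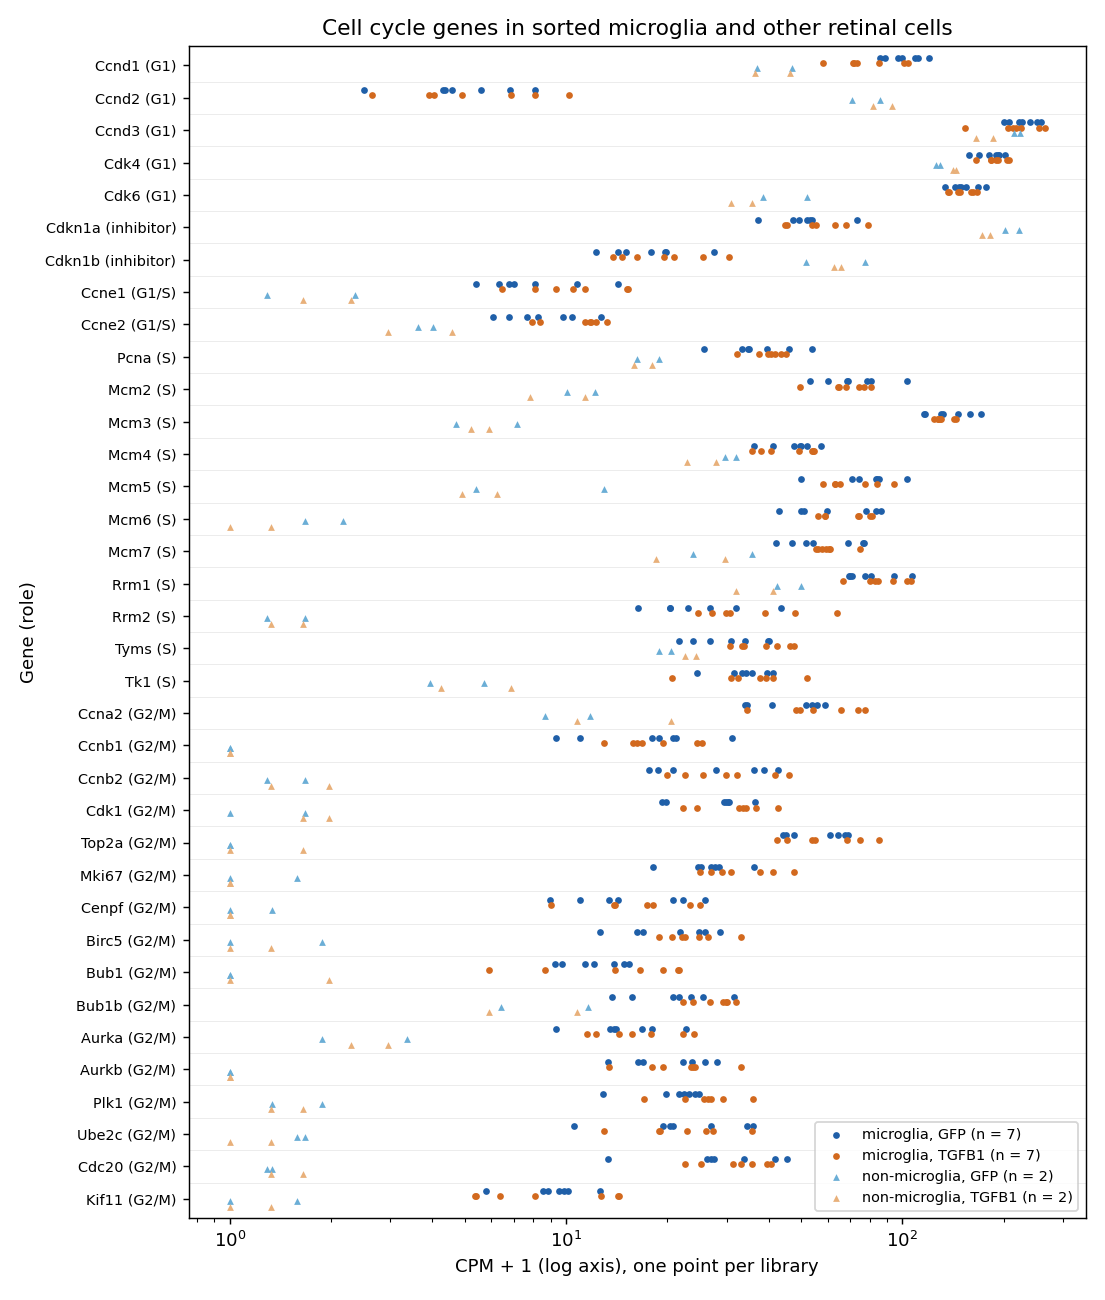
Level of each of the 36 members in every library, as CPM + 1 on a log axis (1 point per library; circles, microglia; triangles, non-microglia; blue, GFP; orange, TGFB1). The GFP and TGFB1 circles intermix for all members, while most triangles of the G2 and mitosis genes sit at the left edge and those of Cdkn1a, Cdkn1b and Ccnd2 lie to the right of the circles.

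Libraries of 1 group were far apart in the mitotic genes. The 16 G2 and mitosis genes summed to 384 ± 84 CPM (SD, n = 7) in the GFP microglia, with 242 CPM in replicate 8 and 493 CPM in replicate 7 as the extremes. In the TGFB1 microglia they summed to 434 ± 78.9 CPM, with 306 CPM in replicate 4 and 554 CPM in replicate 7. GFP replicate 8 had the lowest level of the 7 GFP libraries for 14 of the 16 genes, whereas its S phase genes summed to 770.3 CPM, the second highest of that group, and it had the highest level for 5 of the 11. TGFB1 replicate 7 lay above the median of all 14 microglial libraries for 16 of 16 mitotic and 11 of 11 S phase genes, and TGFB1 replicate 4 was the lowest of its group for 10 of the 16 mitotic genes. Sums over the microglia varied 2.29-fold for G2 and mitosis and 1.47-fold for S phase, but 1.24-fold for the microglial markers. TGFB1 replicate 7 also had the most RNA of Mueller glia markers among the microglia (7162 CPM, next 7042 CPM in TGFB1 replicate 2), but 391 CPM without Apoe and Clu, where the others were at 316 to 895 CPM. GFP replicate 8 was at 5366 CPM of these markers and at 435 CPM without Apoe and Clu. Their part in these differences, and that of library preparation, was not tested. In bulk RNA, fewer cycling cells and less of each transcript per cell cannot be told apart.

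**Figure D3:**
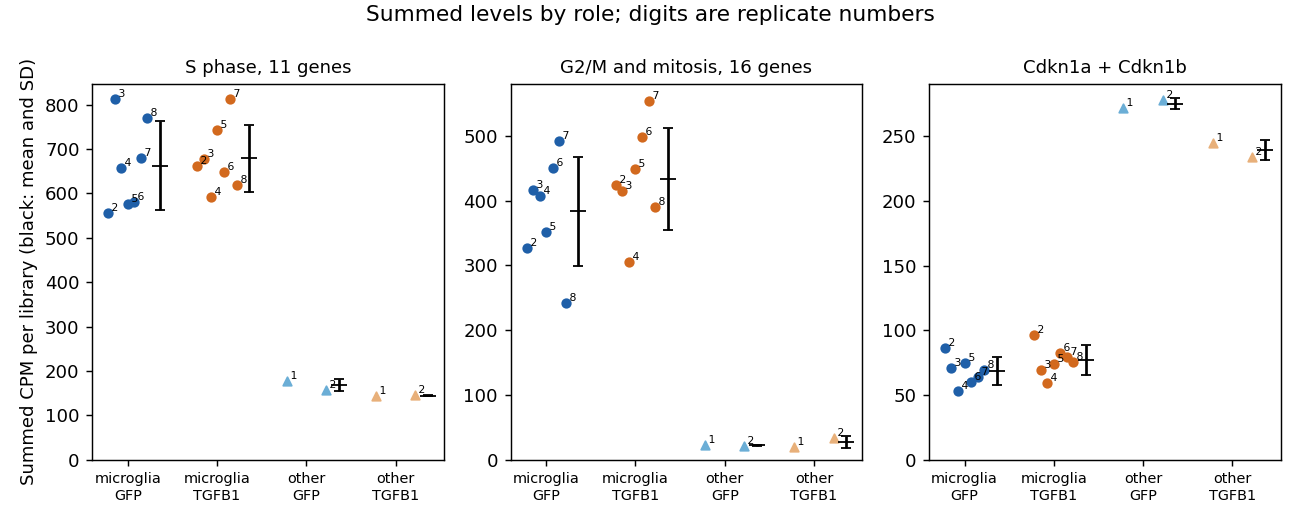
Summed CPM of the S phase genes, the G2 and mitosis genes and both CDK inhibitors in every library (points, with the replicate number; black, mean and SD of the group). Replicate 8 of the GFP microglia is high for S phase (770.3 CPM) and lowest for G2 and mitosis (242 CPM), and the non-microglia lie far below the microglia in the first 2 panels and above them in the third.

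The count of positive estimates depended on single libraries: without TGFB1 replicate 7 it was 20 of 35 with a median of 0.03, and without GFP replicate 8 it was 21 of 35 with a median of 0.06. Without both GFP replicate 2 and TGFB1 replicate 6, the libraries with the most bipolar cell RNA, the count was 20 of 35 with a median of 0.05. The deposited column names end in a letter followed by digits, with no meaning given in the labels. The letter is G for microglia replicates 2 to 4 of each group and TGFB1 replicate 5, and H for all others, non-microglia included. Within the G columns 21 of 35 estimates were above 0 (median 0.02, 0 members at an unadjusted p under 0.05), and within the H columns 27 of 36 (median 0.27, 5 members at an unadjusted p under 0.05). Over all genes, 680 of 11575 were at that p in the G columns and 632 of 11329 in the H columns (edgeR). The change of Mki67 was 0.06 in the first and 0.65 in the second, that of Rrm2 0.17 and 0.89, and that of Ccnd1 -0.25 and -0.54, each with an adjusted p of 0.365 or more. No member was called in either set, and the difference between the sets was not tested. TGFB1 replicate 7 and GFP replicate 8, whose removal lowered the count of positive estimates, are both in the H columns.

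Few other genes of the pathway passed in microglia. Of 187 further genes in 8 lists of the cycle and its regulators, 162 were tested and 1 was called (0.617%, beside 0.310% of all genes). This was Csf1, the gene of a growth factor for microglia, which rose from 11.6 to 28.6 CPM (median 22.4) in the GFP group to 28.9 to 60.0 CPM (median 38.8) with TGFB1. The groups did not overlap, as in 0.219% of all genes tested, and the log2 fold change was 0.98 ± 0.19 (edgeR, adjusted p = 0.0206). Its receptor gene Csf1r was at 10995 CPM on average in GFP and 11005 CPM in TGFB1 microglia, a change of 0.00 ± 0.04. Their list, microglial growth factor signalling, had a median change of -0.00 (1 of 15 tested called). The median change was 0.08 for the E2F, RB and DREAM list (0 of 17 tested called), 0.09 for CDK inhibitors and other cyclin kinases (0 of 12), 0.12 for origin licensing and firing (0 of 17), and 0.07 for the replication fork (0 of 30). It was 0.13 for spindle, kinetochore and cytokinesis (0 of 31), 0.07 for the ubiquitin ligases APC/C and SCF (0 of 20), and 0.10 for p53 targets and checkpoint genes (0 of 20). The smallest p in these lists were those of Ccng2, which encodes cyclin G2 and is known as a FoxO target more than as one of p53 (0.30 ± 0.09, adjusted p = 0.339), and Lin9, a subunit of the DREAM complex (0.41 ± 0.14, adjusted p = 0.428), neither of which passed.

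In the non-microglia, TGFB1 against GFP rested on 2 against 2 libraries, and 18 of the 36 members had counts enough to be tested. None was called (edgeR, beside 0.390% of 13598 genes, 0.338% as higher and 0.0515% as lower with TGFB1). DESeq2 and limma voom called 0, with 1 and 3 at an unadjusted p under 0.05. DESeq2 gave an adjusted p for only 8 members and 4367 genes, and limma voom for 18 members. With edgeR 3 had an unadjusted p under 0.05, beside 1037 of all 13598 genes. Those 3 were lower with TGFB1. They were among 7 members whose groups did not overlap, beside 36.4% of all genes tested, and of the other 4 Rrm1 and Mcm4 were lower and Tyms and Cdk4 higher on average. Ccnd3 was at 223 and 214 CPM in the GFP and 164 and 185 CPM in the TGFB1 libraries (log2 fold change -0.32 ± 0.10, adjusted p = 0.291). Cdkn1a was at 221 and 201 CPM and at 181 and 172 CPM (-0.25 ± 0.10, adjusted p = 0.504). Cdk6 was at 37.6 and 51.2 CPM and at 34.6 and 29.9 CPM (-0.45 ± 0.20, adjusted p = 0.599). Of the 187 other genes 132 were tested and 1 was called (0.758%, beside 0.390% of all genes). This was Rpa1, which encodes a subunit of the protein that coats single-stranded DNA. It rose from 155 and 146 CPM to 271 and 227 CPM (0.73 ± 0.11, edgeR, adjusted p = 3.67e-04). Fbxw7, the ligase subunit that marks cyclin E for degradation, was at 32.9 and 43.8 CPM and at 61.3 and 68.6 CPM (0.77 ± 0.18) and did not pass (adjusted p = 0.0514). Markers of other cells moved with the treatment too. Erythroid markers summed to 698 and 778 CPM in the GFP and 278 and 307 CPM in the TGFB1 libraries, cone markers to 1640.2 and 1941 CPM and to 867 and 1212 CPM, and bipolar cell markers to 1406 and 1493 CPM and to 2154 and 2455 CPM. Their part in these values was not tested.

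Whether TGFB1 acted differently on the 2 sorted populations was tested as the difference of its effects in 1 fit of all 18 libraries. All 36 members could be tested and none was called (edgeR, beside 0.0131% of 15321 genes), as with DESeq2 and limma voom. Each of the 3 tools had 1 member at an unadjusted p under 0.05, beside 711 of all 15321 genes with edgeR. With edgeR this was Cdk6, with an effect higher by 0.44 ± 0.19 in microglia (adjusted p = 1.0). The intervals were wide where the non-microglia had few reads: that of the difference lay within 2-fold for 14 members, and for none of the G2 and mitosis genes.

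The members differed between the sorted populations far more than between the treatments. In GFP retinas 32 of 36 were higher in microglia, 3 were lower (Ccnd2, Cdkn1a and Cdkn1b) and Ccnd3 did not pass (edgeR, 7 against 2 libraries, in the fit of all 18). These populations differ throughout: 64.2% of the 15321 genes tested were called, 29.9% as higher and 34.2% as lower in microglia. The members' median log2 fold change was 3.15 where that of all genes was -0.06, and DESeq2's way of scaling in edgeR moved the latter to -0.17 and left all 35 calls of members in place. The groups did not overlap in 35 members, beside 63.4% of all genes tested. The 16 G2 and mitosis genes and the 11 S phase genes were all higher. Of the 36 members 18 had too few counts to be tested in the non-microglia alone, 14 of them G2 and mitosis genes. They passed the filter of this fit through their counts in microglia, so they could hardly be called as lower there. Ccnd2 passed through the non-microglia in the same way. The counts of members and their median are therefore no test of the group against all genes.

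Mitotic transcripts were few in the non-microglia. The 16 genes summed there to 21.6 and 23.2 CPM in the GFP libraries and to 20.5 and 34.1 CPM in the TGFB1 libraries, or 5.83% of the GFP microglia, where the microglial markers were at 0.168%. No count of Ccnb1 or Aurkb was found in any of the 4 non-microglial libraries, which allows at most 0.881 to 1.01 CPM in each. Top2a and Bub1 had no count in both GFP libraries, and 0.650 and 0.978 CPM in 1 TGFB1 library each. Against 3 counts over the GFP non-microglia together, Top2a was at least 120.5-fold higher in GFP microglia, Aurkb at least 42.8-fold, Ccnb1 at least 38.2-fold and Bub1 at least 24.7-fold.

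Another 7 mitotic genes had 1 to 3 counts in the GFP non-microglia together, and are given as ratios of pooled counts with exact 95% counting intervals. Cdc20 was 94.9-fold higher in microglia (26.1 to 786), Cdk1 87-fold (24 to 721), Mki67 81.2-fold (22.3 to 673) and Ccnb2 60.4-fold (20.5 to 294). Cenpf was 101-fold higher (17.9 to 3993), Birc5 43.3-fold (14.7 to 211) and Kif11 26.1-fold (7.07 to 218). In the GFP non-microglia the 7 genes were at 0 to 0.881 CPM. In the TGFB1 non-microglia, Cdc20 was at 0.652 and 0.325 CPM, Cdk1 at 0.652 and 0.975 CPM, and Ccnb2 at 0.326 and 0.975 CPM. Mki67 and Cenpf were at 0 in both of these libraries, Birc5 was at 0.326 CPM and 0, and Kif11 at 0 and 0.325 CPM. Each of these 7 genes was thus at or under the limit of 3 counts in every non-microglial library.

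The remaining 5 mitotic genes had more than 3 counts in the GFP non-microglia together. Plk1 was at 0.881 and 0.337 CPM there in GFP and 0.652 and 0.325 CPM in TGFB1 libraries (30.0-fold higher in microglia, fitted 95% interval 15.3 to 59.1), and Ube2c at 0.587 and 0.674 CPM and at 0.326 CPM and 0 (34.2-fold, 13.5 to 86.5). Of the exon bases of Ube2c 22.8% are shared with Tnnc2. Aurka was at 0.881 and 2.36 CPM and at 1.96 and 1.30 CPM (8.83-fold, 4.48 to 17.4). Ccna2 and Bub1b held most of the mitotic counts of the non-microglia: Ccna2 was at 7.64 and 10.8 CPM in GFP and 9.78 and 19.5 CPM in TGFB1 libraries (5.02-fold, 3.03 to 8.34), with 12.5% of its exon bases in Exosc9. Bub1b was at 10.6 and 5.39 CPM and at 4.89 and 9.75 CPM, and was 2.58-fold higher in microglia (1.63 to 4.08). Both were lower in all 4 non-microglial libraries than in any GFP microglial library.

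The S phase genes differed in how far they stood above the other cells in microglia. Mcm6 was 64.4-fold higher (34.2 to 121), from 1.17 and 0.674 CPM in the GFP non-microglia and 0.326 CPM and 0 in the TGFB1 ones. Mcm3 was 27.3-fold higher (20.2 to 36.9), from 6.17 and 3.70 CPM, with 4.89 and 4.22 CPM under TGFB1. Rrm2, at 0.294 and 0.674 CPM in GFP and 0.326 and 0.650 CPM in TGFB1 non-microglia, was 54.6-fold higher as a ratio of pooled counts (18.5 to 266). Mcm5 (12 and 4.38 CPM, then 5.22 and 3.90 CPM under TGFB1) was 9.26-fold higher, Tk1 (2.94 and 4.71 CPM, then 3.26 and 5.85 CPM) 8.72-fold and Mcm2 (11.2 and 9.09 CPM, then 10.4 and 6.82 CPM) 7.08-fold.

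The other S phase genes were expressed in both populations and were 1.57 to 2.27-fold higher in microglia. Pcna was at 17.9 and 15.2 CPM in the GFP and 17.0 and 14.9 CPM in the TGFB1 non-microglia (2.27-fold higher in microglia), and Mcm7 at 34.7 and 22.9 CPM and at 28.7 and 17.5 CPM (2.04-fold), with 12.6% of the exon bases of Mcm7 in other genes. Rrm1 was at 41.4 and 48.8 CPM and at 31.0 and 40.3 CPM (1.79-fold), and Mcm4 at 31.1 and 28.6 CPM and at 21.9 and 27.0 CPM (1.57-fold, 1.20 to 2.05). Tyms was at 17.9 and 19.5 CPM and at 21.5 and 23.4 CPM (1.62-fold, 1.16 to 2.25, adjusted p = 0.0115). The call of Tyms was lost with DESeq2 (adjusted p = 0.0554) and without GFP non-microglia replicate 1 (0.0813). Folds of the MCM subunits ranged from 1.57 (Mcm4) to 64.4 (Mcm6), and the 95% intervals of these 2 did not meet. For Pcna and Tyms, as for Ccnb1, Ccnb2 and Ccnd3, the annotation holds pseudogene copies among which reads could be split.

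The G1 genes were not all higher. In GFP microglia Cdk6 was 3.44-fold higher (2.82 to 4.19), Ccnd1 2.45-fold (1.87 to 3.23) and Cdk4 1.45-fold (1.25 to 1.68) than in the other cells. Ccnd1 was at 45.8 and 36 CPM in GFP and 45.3 and 35.4 CPM in TGFB1 non-microglia, and Cdk4 at 128 and 125 CPM and at 143 and 140.4 CPM, with 19.7% of its exon bases in Tspan31. Ccnd3 had a fold of 1.05 between the populations (0.860 to 1.27) and did not pass (adjusted p = 0.695). Ccnd2 was lower in microglia, at 0.0525 of the level of the other cells (0.0349 to 0.0792). In the non-microglia it was at 69.9 and 84.9 CPM in the GFP and 92.3 and 80.6 CPM in the TGFB1 libraries. Of the E cyclins, Ccne1 was 8.92-fold higher in microglia (3.62 to 22), from 0.294 and 1.35 CPM in GFP and 0.652 and 1.30 CPM in TGFB1 non-microglia. Ccne2 was 2.73-fold higher (1.54 to 4.85), from 2.64 and 3.03 CPM and 3.59 and 1.95 CPM, with 17.4% of its exon bases in Ints8.

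Both inhibitors ran the other way. Cdkn1a was at 221 and 201 CPM in the GFP non-microglia against 36.1 to 72.4 CPM in the GFP microglia, a fold of 0.242 (0.191 to 0.307). Cdkn1b was at 50.8 and 76.4 CPM in the GFP and 64.6 and 61.4 CPM in the TGFB1 non-microglia, and its fold in microglia was 0.270 (0.192 to 0.380). Summed over both genes, the non-microglia held 272 and 278 CPM in the GFP and 245 and 234 CPM in the TGFB1 libraries, and the microglia 53 to 96.6 CPM. No microglial library reached the lowest non-microglial one.

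Per kilobase of exon, which allows genes to be compared with each other, Cdk4 was the most abundant member in GFP microglia at 56.3 ± 4.73 CPM per kb (SD, n = 7), followed by Mcm3 (36.7 ± 5.58), Ccnd3 (26 ± 2.46), Ccnd1 (21.4 ± 2.65) and Mcm5 (19.4 ± 4.06). The most abundant mitotic genes were Ccnb2 (18.3 ± 6.73) and Cdc20 (15.9 ± 5.77), and the least abundant members were Kif11 (1.11 ± 0.275), Cenpf (1.01 ± 0.410) and Ccnd2 (0.444 ± 0.194). Only the steps from Cdk4 to Mcm3, from Mcm3 to Ccnd3 and from Ccne2 (2.23 ± 0.658) to Kif11 were larger than the sum of the SDs of both neighbours. In the GFP non-microglia the order was led by Cdkn1a (59.5 ± 4.0 CPM per kb, n = 2), Cdk4 (38.8 ± 0.691), Ccnd3 (24.9 ± 0.737) and Cdkn1b (14 ± 3.98), and Mcm3 stood at 1.32 ± 0.464.

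The other lists of the pathway were divided in the same comparison. Of the 183 further genes tested, 105 were higher and 28 lower in GFP microglia, with a median log2 fold change of 0.82. Among all 15321 genes tested, 29.9% were called as higher and 34.2% as lower, with a median of -0.06. Of the 187 genes in the lists, 162 could be tested in the microglia alone and 132 in the non-microglia alone. A gene that passed the filter of this fit through 1 population could hardly be called as lower in it. This limit also applies to the lists of regulators and growth factors below. Of the spindle, kinetochore and cytokinesis genes 28 of 33 were higher and 0 lower (median 2.53). Of these 33, 18 had too few counts to be tested in the non-microglia alone and 2 in the microglia alone. Kif2c, Nusap1 and Cenpe had 1 count each in the GFP non-microglia. The kinesin gene Kif2c was 122-fold higher as a ratio of pooled counts (21.7 to 4816), the spindle gene Nusap1 116-fold (20.6 to 4595) and the kinetochore motor gene Cenpe 99.9-fold (17.8 to 3961). Of the origin licensing and firing genes 12 of 21 were higher and 0 lower (median 0.91), with Cdt1, which loads the MCM complex, at 11.1-fold (6.75 to 18.2). Of the replication fork genes 21 of 30 were higher and 3 lower (median 0.88), with the DNA methylation factor Uhrf1 at 32.9-fold (16.5 to 65.9).

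The lists of regulators stand beside 29.9% of all genes called as higher and 34.2% as lower. In the E2F, RB and DREAM list 11 of 20 were higher and 4 lower (median 0.57), with E2f2 11-fold higher (6.47 to 18.7), the DREAM subunit Lin9 4.34-fold higher (2.79 to 6.73) and the DREAM subunit Lin52 at a fold of 0.291 (0.212 to 0.398). Among CDK inhibitors and other cyclin kinases 6 of 17 were higher and 5 lower (median 0.15), with Ccnf 11.9-fold (6.47 to 21.8) and Cdk2 2.82-fold (2.13 to 3.72). Of the APC/C and SCF genes 5 of 20 were higher and 5 lower (median 0.15). In this list and the one before it the shares were near those of all genes. Separase (Espl1), the protease that splits sister chromatids, had no count in the GFP non-microglia and was at least 109-fold higher in microglia. Its inhibitor securin (Pttg1) was 51.7-fold higher (14.2 to 429.6), and Fbxw7 was at 0.285 (0.205 to 0.397). Of the p53 targets and checkpoint genes 12 of 26 were higher and 7 lower (median 0.64), with the checkpoint kinase Chek2 20.3-fold (12.6 to 32.6), Ccng2 10.9-fold (8.04 to 14.8) and Trp53 itself 2.84-fold (2.38 to 3.39).

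In the list of microglial growth factor signalling, which holds receptors, Smad genes and transcription factors besides the growth factors, 10 of 16 genes tested were higher and 4 lower in microglia, beside 29.9% and 34.2% of all genes. Csf1r, a marker of the cells, was 1201-fold higher, the TGF-beta receptor gene Tgfbr1 23.0-fold (18.2 to 29.1) and Myc 9.71-fold (7.19 to 13.1).

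**Figure D4:**
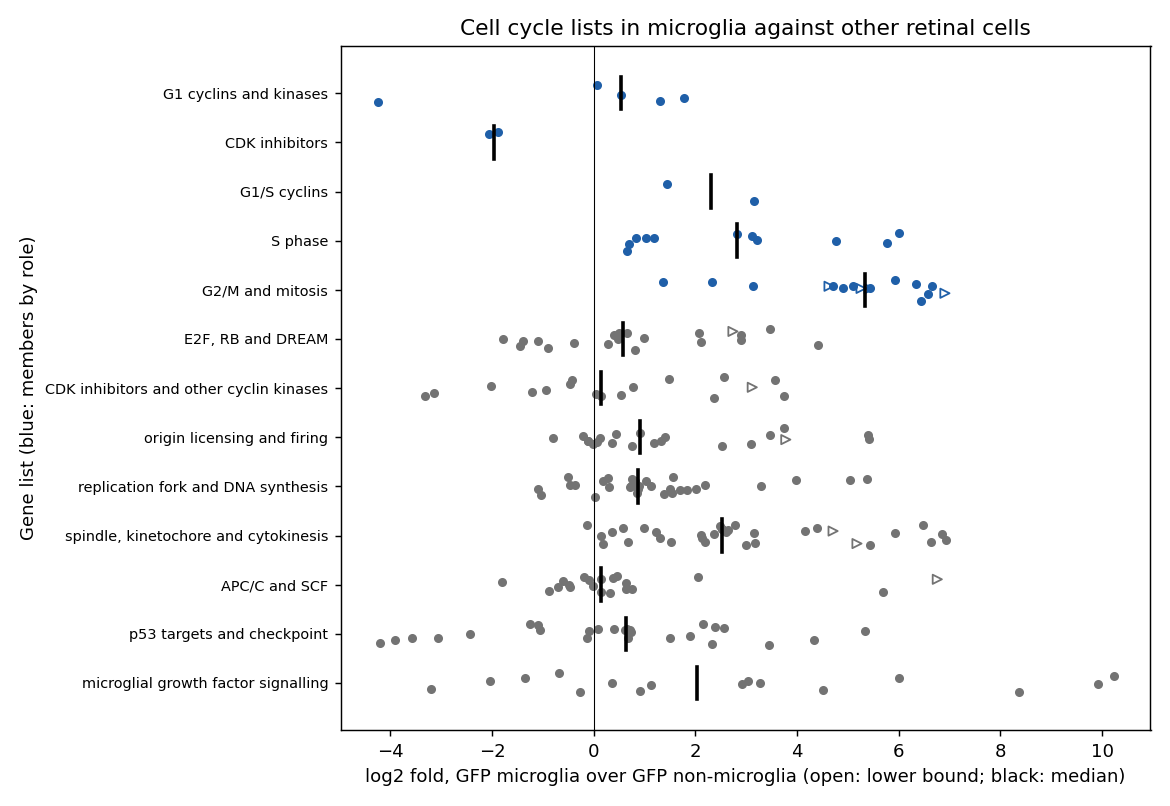
Log2 fold of each gene between GFP microglia and GFP non-microglia, by list (blue, members by role; grey, further pathway genes; open arrowheads, lower bounds for genes with no count in the GFP non-microglia; black bars, medians; genes with too few counts in both are left out). The G2 and mitosis members have a median of 5.34 with bounds in place of fitted values, the CDK inhibitors lie left of 0, and the lists of regulators spread to both sides.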

How the data were processed

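The authors deposited raw read counts as 1 table, with Ensembl genes as rows and libraries as columns. Per the submitters' processing notes reads went through STAR, featureCounts and DESeq2 on GRCm38.p6; their versions, annotation release, strand and multi-mapping settings were not given in the sources used here. Of 54532 identifiers 54495 were matched to GENCODE M21 symbols. Groups came from sample titles. Counts were tested with edgeR 4.0.16 in R 4.3.3 (TMM, filterByExpr, robust quasi-likelihood fit, Benjamini-Hochberg adjustment over all genes tested, called under 0.05): TGFB1 against GFP in each sorted population alone, and, from 1 fit of 4 groups, how these effects differ and how GFP microglia compare with GFP non-microglia. Standard errors are the log2 fold change over the square root of F. The fit was tested on simulated data whose planted changes were all larger than the members' estimates in microglia. It therefore does not show whether changes of that size would be called. CPM are counts per 1000000 on TMM library sizes of all 18 libraries. DESeq2 1.42.0, limma 3.58.1 voom, other scalings, filters and covariates, a block on the replicate number and each library left out were alternatives. All 36 members are reported by role, with up to 4 called genes of each further list, or the smallest p where none was called. Members and lists were chosen with earlier results of these data known. Genes without a count in 1 group are given as bounds against 3 counts over that group. Same-numbered GFP and TGFB1 microglia did not deviate together in every pair, so the numbers were not taken as pairs.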

Additional observations from a re-analysis of the deposited data

Results flagged for a closer look

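Of 82 groups of 7 microglial values checked for 1 library far from the others, 2 stood out. This is a smaller share than the 1 in 20 or so that chance gives. Mcm7 was at 74.0 CPM in TGFB1 replicate 7, where the next library was at 60.1 CPM and the lowest at 54.3 CPM. Plk1 was at 11.9 CPM in GFP replicate 8, where the next library was at 18.8 CPM and the highest at 23.9 CPM. Both libraries were also the extremes of the summed G2 and mitosis genes, a sum that includes Plk1.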

How the results depend on the processing

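In microglia, in non-microglia and for the difference of the effects, 0 members were called under every alternative run, and between the populations 34 or 35 were, of which Tyms alone was lost (log2 fold change 0.57 with DESeq2 and 0.67 without GFP non-microglia replicate 1). Over all genes the count called in microglia was 34, and became 64 without a filter on low counts and 15 in the fit of all 18 libraries; in non-microglia 53 became 102 and 4, and 35 with DESeq2; for the difference 2 became 12 without the filter and 1 without robust dispersion. Alternatives chosen after seeing the data gave, in microglia, 48 without GFP replicate 2 and TGFB1 replicate 6 and 38 with the letter G or H as a covariate. They gave 13 with a Mueller glia covariate without Apoe and Clu, 3 in the G columns alone and 0 in the H columns alone (632 at an unadjusted p under 0.05). For the difference they gave 3 without GFP replicate 2 and TGFB1 replicate 6 of the microglia, and 1 in the H columns. With the replicate number as a block, 60 genes were called in microglia and 109 in non-microglia, and 0 members in each. Same-numbered microglia correlated at -0.122 to 0.216 in their deviations from the group means, over 0.1 in 5 of 7 pairs, and replicate 2 alone correlated best with its own number in both directions. As not every pair was over 0.1, the numbers were not taken to pair the samples, and whether they mark a shared source was not tested. Leaving out each library in turn gave 16 to 34 in microglia (16 without TGFB1 replicate 8, 19 without GFP replicate 3 and 21 without TGFB1 replicate 7), 28 to 110 in non-microglia (110 without either GFP library, 28 without TGFB1 replicate 1), 1 to 2 for the difference and 8383 to 10053 between the populations. With 1 library left in a group, it is assumed to vary like the others. For the mitotic genes depth limited the non-microglia: 14 of 16 were not tested there for TGFB1. In that comparison DESeq2 gave an adjusted p for only 8 members of any role.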
